A study of Mus musculus with 96 samples.

Results

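Piericidin was compared with its solvent DMSO in C2C12 myoblasts that expressed NDI1, the single-subunit NADH dehydrogenase of yeast mitochondria. C2C12 is a mouse myoblast line, and the comparison was read from the labels, which gave 4 of the 96 RNA-seq samples of the series: 2 of proliferating NDI1 myoblasts with DMSO and 2 with piericidin, both for 10 hr. NDI1 came from a lentiviral, doxycycline-inducible construct in a stable line, and every myoblast sample used here, controls included, had 300 ng/ml doxycycline from the day before treatment and during it, in media with 10 mM glucose and 4 mM glutamine and without pyruvate. Set beside it were myoblasts that carried luciferase (the control protein), LbNOX (a bacterial NADH oxidase acting in the cytosol) or mitoLbNOX (the same oxidase sent to the mitochondrial matrix), each with 3 DMSO and 3 piericidin samples. Modelled with them, and used again for plate position, were groups of 3 samples treated for 10 hr with antimycin, an inhibitor of complex III (luciferase, LbNOX and mitoLbNOX cells), or oligomycin, an inhibitor of ATP synthase (luciferase and LbNOX cells). The labels do not say whether the samples of a group were separate cultures or whether a line was 1 clone. The p-values therefore measure only the spread between samples within groups, estimated over all 37 myoblast samples modelled together.

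Complex I of the respiratory chain oxidizes NADH in the matrix, passes the electrons to coenzyme Q and pumps protons. Piericidin blocks it at its quinone site. NDI1 also passes electrons from matrix NADH to coenzyme Q but pumps no protons and is not bound by the inhibitor, so that complexes III and IV can go on working, whereas LbNOX and mitoLbNOX oxidize NADH with oxygen and do not feed the chain. A blocked chain is known to set off the integrated stress response (ISR), in which phosphorylated eIF2α lowers general translation and raises translation of the transcription factor ATF4, and ATF4 then raises genes for amino acid synthesis, amino acid uptake and tRNA charging.

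The NDI1 transgene was counted in all 4 samples labelled NDI1 and had 0 counts in every other sample of the series. Its counts were 434 and 400 with DMSO and 372 and 397 with piericidin, and its levels in CPM (counts scaled to a common library size, normalized for composition) were 30.5, 30.0, 31.9 and 37.7 CPM. Transgene RNA was thus present at a similar level on both sides. The 4 libraries held between 9798315 and 13681469 counts, within the range of 7796879 to 14960910 over the 37 myoblast samples modelled together. Of the 5 myoblast markers all were tested, and their summed level lay between 549 and 557 CPM with DMSO and between 529 and 540 CPM with piericidin in NDI1 cells, against 718 to 738 CPM in luciferase cells with DMSO. Of 6 markers of differentiated myotubes 2 were tested, at a summed 10.5 to 12.9 CPM in NDI1 cells, and of 4 markers of other cells 2 were tested, at a summed 2.93 to 3.93 CPM. Myog, Myh3, Ckm, Tnnt3, Ptprc and Epcam were below the count filter.

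The first question was what piericidin still changed when NDI1 was present. Of 11981 genes tested, 1 was called at an adjusted p under 0.05 (0.00835% of genes), and it was higher with piericidin: Eif4ebp1, which encodes 4E-BP1, an inhibitor of cap-dependent translation and a target of ATF4. Eif4ebp1 (ENSMUSG00000031490, chr8:27260329-27276674, GRCm38) had 162 and 160.2 CPM with DMSO and 192 and 203 CPM with piericidin. Both piericidin samples lay above both DMSO samples. The log2 fold change was 0.29 (SE 0.041, 95% interval 0.21 to 0.38, adjusted p = 0.000818, edgeR quasi-likelihood test with Benjamini-Hochberg adjustment). In luciferase cells the same gene went from 135 to 139 CPM with DMSO to between 492 and 499.9 CPM with piericidin, a log2 fold change of 1.85, and the difference between the 2 responses was -1.56 (SE 0.053, edgeR, adjusted p = 1.93e-20).

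That single call depended on the samples and the processing. Without NDI1 DMSO replicate 2 the log2 fold change of Eif4ebp1 was 0.29 with an edgeR adjusted p of 0.0597, and without NDI1 piericidin replicate 2 it was 0.25 with an adjusted p of 0.225, so that 0 genes were called in either case, with 586 and 540 genes at an unadjusted p under 0.05. With all 4 samples, 1005 genes were at an unadjusted p under 0.05 (8.39% of genes), 571 of them higher (4.77%) and 434 lower (3.62%). DESeq2's Wald test called 6 genes. Without the count filter edgeR called 552 of 40795 genes, 497 of them higher. Fitted with only the groups compared, Eif4ebp1 had a log2 fold change of 0.30 with an edgeR adjusted p of 0.248, and 0 genes were called, with 1098 at an unadjusted p under 0.05. With 2 samples against 2, and the spread estimated over all 37 samples of the fit, the median SE of a log2 fold change was 0.17. For 9350 genes the 95% interval lay inside -1 to 1. For the other genes the interval did not exclude a 2-fold change. An exact permutation test of 2 against 2 samples cannot give a p under 0.333.

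The regulators of the ISR came next. Atf4 encodes the transcription factor at the centre of the response, and its RNA was at 253 and 260.1 CPM with DMSO and at 283 and 272 CPM with piericidin in NDI1 cells. Both piericidin samples were above both DMSO samples. The log2 fold change was 0.12 (SE 0.039, edgeR adjusted p = 0.576), against 2.39 in luciferase cells. Ddit3, which encodes the transcription factor CHOP, had 23.9 and 21.2 CPM with DMSO and 28.1 and 23.8 CPM with piericidin, so that 1 piericidin sample lay just below the higher DMSO sample. Its log2 fold change was 0.20 (SE 0.081, edgeR adjusted p = 0.576) in NDI1 cells and 4.60 in luciferase cells, and the difference was -4.39 (SE 0.11, edgeR adjusted p = 3.41e-24). Atf3, another stress-induced transcription factor, had 1.97 and 0.751 CPM with DMSO and 2.06 and 0.95 CPM with piericidin, and the groups interleaved. In luciferase cells its log2 fold change was 7.33, against 0.15 (SE 0.38) here.

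Other members followed the same order. Chac1, a glutathione-degrading enzyme, had 28.4 and 30.6 CPM with DMSO and 40.2 and 43.1 CPM with piericidin, with no overlap, for a log2 fold change of 0.50 (SE 0.13, edgeR adjusted p = 0.464). Trib3, a pseudokinase that restrains ATF4 signalling, had 29.8 and 25.5 CPM with DMSO and 34.4 and 36.9 CPM with piericidin, again with no overlap, for a log2 fold change of 0.36 (SE 0.098, edgeR adjusted p = 0.576). Neither gene passed the test across all genes, although in luciferase cells their log2 fold changes were 3.76 and 5.26. Ppp1r15a, which encodes the GADD34 subunit that returns eIF2α to its unphosphorylated form, had 23.0 and 22.4 CPM with DMSO and 23.7 and 20.3 CPM with piericidin, with overlap, and a log2 fold change of -0.039 (SE 0.12). Gdf15, a secreted stress hormone, had 8.28 and 6.69 CPM with DMSO and 7.03 and 10.8 CPM with piericidin. Its groups overlapped, and its log2 fold change was 0.24 in NDI1 cells against 4.91 in luciferase cells.

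**Figure D1:**
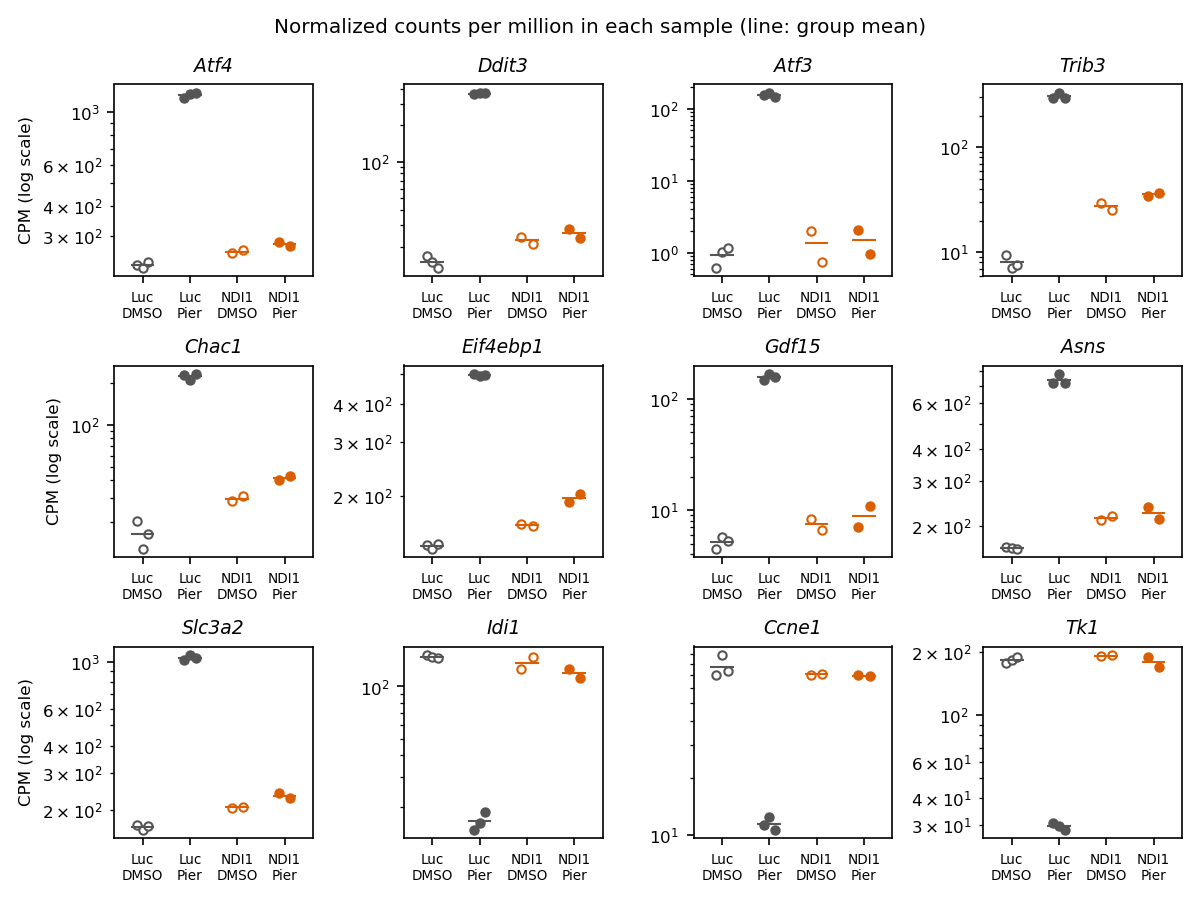
Normalized level in CPM (log axis, one panel per gene with its own scale) of 12 genes in each luciferase and NDI1 myoblast sample with DMSO (open) or piericidin (filled); horizontal lines are group means. The 3 luciferase piericidin samples stand apart in each panel, whereas the 2 NDI1 piericidin samples lie near the NDI1 DMSO samples, as for Ddit3 at 28.1 and 23.8 CPM against 23.9 and 21.2 CPM.

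Across 4 lists of ISR genes (regulators, amino acid and one-carbon enzymes, amino acid transporters, cytosolic tRNA synthetases) 64 genes were tested, and 55 of them rose with piericidin in luciferase cells, where 30.9% of all genes did, with a median log2 fold change of 1.94. In NDI1 cells the median over these 55 was 0.080, beside -0.015 over all genes tested, with 40 of 55 above 0 beside 46.6% of all genes. Of the 55, 1 was called, and 13 were higher and 1 lower at an unadjusted p under 0.05, beside 4.77% and 3.62% of all genes. With a term for outer wells of the plate, described below, the median was 0.14. For 25 of the 55 both piericidin samples lay above both DMSO samples and for 7 both lay below, whereas over all genes the groups did not overlap for 19.6% in the higher and 22.1% in the lower direction. Called lower in NDI1 than in luciferase cells, for the response itself, were 54 of the 55, where 21.5% of all genes were called lower in that comparison; the 55 had been chosen on luciferase samples that also enter it. The exception was Vars, the valyl-tRNA synthetase, at 125 and 64.8 CPM with DMSO and 236 and 289 CPM with piericidin in NDI1 cells. Its log2 fold change of 1.46 (SE 0.60, edgeR adjusted p = 0.576) was the highest of the 55, and its luciferase samples with DMSO ran from 60.4 to 134 CPM. Vars is among the genes described below with plate position, where its smaller value with a term for well position is given.

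In luciferase cells 30.9% of all genes were called higher and 30.8% lower. At an unadjusted p under 0.05, 4.77% of all genes were higher and 3.62% lower in NDI1 cells. By list, ISR regulators had 1 of 19 called higher in NDI1 cells (Eif4ebp1), with 6 higher and 0 lower at that unadjusted p. Their median log2 fold change there was 0.16, against 2.51 with 15 higher and 3 lower in luciferase cells. Amino acid and one-carbon enzymes had 0.083 with 0 of 14 called by edgeR and 2 higher at an unadjusted p under 0.05, against 1.74 with 13 higher and 1 lower. Amino acid transporters had 0.041 with 0 of 11 called and 2 higher at that unadjusted p, against 2.13 with 10 higher and 1 lower, and tRNA synthetases had -0.019 with 0 of 20 called and 3 higher and 1 lower at that p, against 1.42 with 17 higher and 1 lower. Asns, asparagine synthetase, had 210.5 and 219 CPM with DMSO and 238 and 214 CPM with piericidin, overlapping groups, and a log2 fold change of 0.073 (SE 0.059) against 2.17 in luciferase cells. Gpt2, the mitochondrial alanine transaminase, had 133 and 112 CPM with DMSO and 165 and 169 CPM with piericidin, not overlapping, and a log2 fold change of 0.45 (SE 0.13, edgeR adjusted p = 0.576). Slc3a2, the shared heavy chain of several amino acid exchangers, had 205 and 207 CPM with DMSO and 239 and 228 CPM with piericidin, not overlapping, and a log2 fold change of 0.18 (SE 0.046, edgeR adjusted p = 0.464) against 2.65 in luciferase cells.

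ATF4 binds DNA as a dimer with C/EBP proteins at elements of the form TGATGNAA, where N is any base, and the promoters of the ISR genes were searched for these letters because these are the genes that moved together in luciferase cells and hardly moved in NDI1 cells. In the 250 bases before the gene start (RefSeq promoters, GRCm38.p6, both strands), 12 of the 40 promoters at hand for the 55 genes held a match (30.0%), against 2.28% of 8828 promoters of tested genes and 3.91% of 27025 promoters in all. A match is a description of these letters only. The 5 sequences here are written 5′ to 3′ in the direction of the gene, with the match in capitals, and stand for regulators and an enzyme whose values are given in the text. They lie at chr2:119351023-119351082 (plus strand, Chac1), chr1:191183410-191183469 (minus, Atf3), chr6:7693210-7693258 (minus, Asns), chr7:45615596-45615655 (minus, Fgf21) and chr7:126625547-126625606 (minus, Nupr1), and all but that of Asns hold the reverse complement.
Chac1: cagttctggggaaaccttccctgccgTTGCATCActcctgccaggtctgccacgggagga
Atf3: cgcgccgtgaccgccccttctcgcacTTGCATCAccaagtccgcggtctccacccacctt
Asns: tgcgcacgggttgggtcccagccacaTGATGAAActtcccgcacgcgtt
Fgf21: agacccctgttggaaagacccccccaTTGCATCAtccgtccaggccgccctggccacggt
Nupr1: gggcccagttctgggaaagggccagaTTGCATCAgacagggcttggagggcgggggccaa

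Of these 5 genes, Fgf21, a secreted metabolic hormone, went from 0.068 to 0.18 CPM with DMSO to 35.0 to 39.0 CPM with piericidin in luciferase cells, and its level in NDI1 cells was 0.42 and 0.30 CPM with DMSO and 0.60 and 0.48 CPM with piericidin. Both piericidin samples were higher, at so few counts that the log2 fold change of 0.56 had an SE of 0.77. Nupr1, a small stress-induced chromatin protein, had 22.4 and 23.5 CPM with DMSO and 26.6 and 24.6 CPM with piericidin. Its groups did not overlap, and its log2 fold change was 0.16 (SE 0.090, edgeR adjusted p = 0.619) against 3.27 in luciferase cells.

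Gene groups that fell in luciferase cells had medians near 0 in NDI1 cells. All 25 genes of sterol synthesis and uptake, targets of SREBP2, fell with piericidin in luciferase cells, where 30.8% of all genes did, with a median log2 fold change of -1.56. In NDI1 cells 0 of 25 were called by edgeR and 3 were lower at an unadjusted p under 0.05 (3.62% of all genes). Their median was -0.094, and 4 of 25 were above 0, beside 46.6% of all genes. The response was higher in NDI1 than in luciferase cells for 24 of the 25, where 21.2% of all genes were called higher. Idi1, isopentenyl-diphosphate isomerase, had 127 and 148 CPM with DMSO and 126 and 112 CPM with piericidin in NDI1 cells. Both piericidin samples lay below both DMSO samples, by less than 1 CPM for the nearest pair. Its log2 fold change was -0.20 (SE 0.087, edgeR adjusted p = 0.576), against -3.15 in luciferase cells. Hmgcs1, which makes the precursor of mevalonate, had 165 and 177 CPM with DMSO and 139 and 149.9 CPM with piericidin, not overlapping, and a log2 fold change of -0.24 (SE 0.076, edgeR adjusted p = 0.576) against -2.32.

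Of 27 genes of DNA replication and the G1/S step of the cell cycle, 24 fell in luciferase cells, where 30.8% of all genes did (median log2 fold change -0.88). In NDI1 cells 0 were called by edgeR, with 1 at an unadjusted p under 0.05 and a median of -0.064. There 4 of 27 were above 0, beside 46.6% of all genes. The response was higher in NDI1 than in luciferase cells for 23 of the genes, where 21.2% of all genes were called higher. Ccne1, cyclin E1, had 70.3 and 70.7 CPM with DMSO and 70.2 and 69.0 CPM with piericidin. The 4 values lay within 2 CPM, and the log2 fold change was -0.019 (SE 0.11) with a 95% interval of -0.23 to 0.20, against -2.75 in luciferase cells. Tk1, thymidine kinase of S phase, had 191 and 193 CPM with DMSO and 189 and 169 CPM with piericidin, lower in both piericidin samples, with a log2 fold change of -0.10 (SE 0.064) against -2.63. Of 14 p53 targets, 7 rose and 4 fell in luciferase cells, where 30.9% of all genes rose and 30.8% fell, and 0 were called in NDI1 cells, with 2 higher at an unadjusted p under 0.05 and a median of -0.090. Cdkn1a, the p21 inhibitor of cyclin-dependent kinases, had 90.3 and 91.0 CPM with DMSO and 94.2 and 106 CPM with piericidin, not overlapping, for 0.14 (SE 0.064, edgeR adjusted p = 0.576) against 0.99. Trp53inp1 had 7.23 and 7.21 CPM with DMSO and 8.40 and 3.42 CPM with piericidin, so that the DMSO samples lay between the piericidin samples.

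Genes of the chain itself were examined next. The 36 tested nuclear genes of complex I subunits had 0 called in NDI1 cells by edgeR, 1 higher and 1 lower at an unadjusted p under 0.05, and a median log2 fold change of 0.0100, with single genes between -0.22 and 0.18. The 13 mitochondrially encoded genes had 0 called, 4 lower at an unadjusted p under 0.05 (3.62% of all genes), and a median of -0.17, with 2 above 0. Mitochondrially encoded RNA made up 2.36% and 2.38% of counts with DMSO and 2.20% and 2.19% with piericidin, lower in both piericidin samples. mt-Nd1, a complex I subunit of the mitochondrial genome, had 1681 and 1669 CPM with DMSO and 1498 and 1479 CPM with piericidin, not overlapping, and its log2 fold change was -0.17 (SE 0.10, edgeR adjusted p = 0.641). In luciferase cells it was -0.94, and the difference of 0.77 passed the test (SE 0.13, edgeR adjusted p = 2.59e-05) and was the highest of the list. Over the 13 genes the luciferase median was -0.28 with 7 lower, where 30.8% of all genes were, and the response was called higher in NDI1 than in luciferase cells for 1, lower for 1 and not called for 11, where 42.7% of all genes were called.

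In none of the other 8 lists was a gene called in NDI1 cells by edgeR, with between 0 and 2 members at an unadjusted p under 0.05. Their medians were -0.051 for 11 genes of the NADH shuttles, -0.056 for 23 genes of glycolysis and HIF, 0.034 for 3 glucose-sensing genes, 0.048 for 13 mitochondrial chaperones and proteases, 0.054 for 10 NRF2 targets, -0.013 for 12 ER chaperones, 0.045 for 7 genes of pyrimidine synthesis and 0.064 for 13 immediate early genes. In luciferase cells the same lists had 3 higher and 7 lower, 6 and 16, 1 and 0, 10 and 0, 6 and 2, 7 and 4, 5 and 1, and 9 and 3, in that order, where 30.9% of all genes were higher and 30.8% lower. All 8 medians lay between -0.056 and 0.064 with NDI1. Over the 50 genes with the most counts in the 17 lists (up to 3 a list), 48 had NDI1 log2 fold changes within 0.3 of 0, from -0.24 (Hmgcs1) up, and the highest were Mlxip at 0.42, a glucose-sensing transcription factor, and Txnrd1 at 0.34, thioredoxin reductase. The gene with the smallest p of each list, Eif4ebp1 aside, had an edgeR adjusted p of 0.464 or more.

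**Figure D2:**
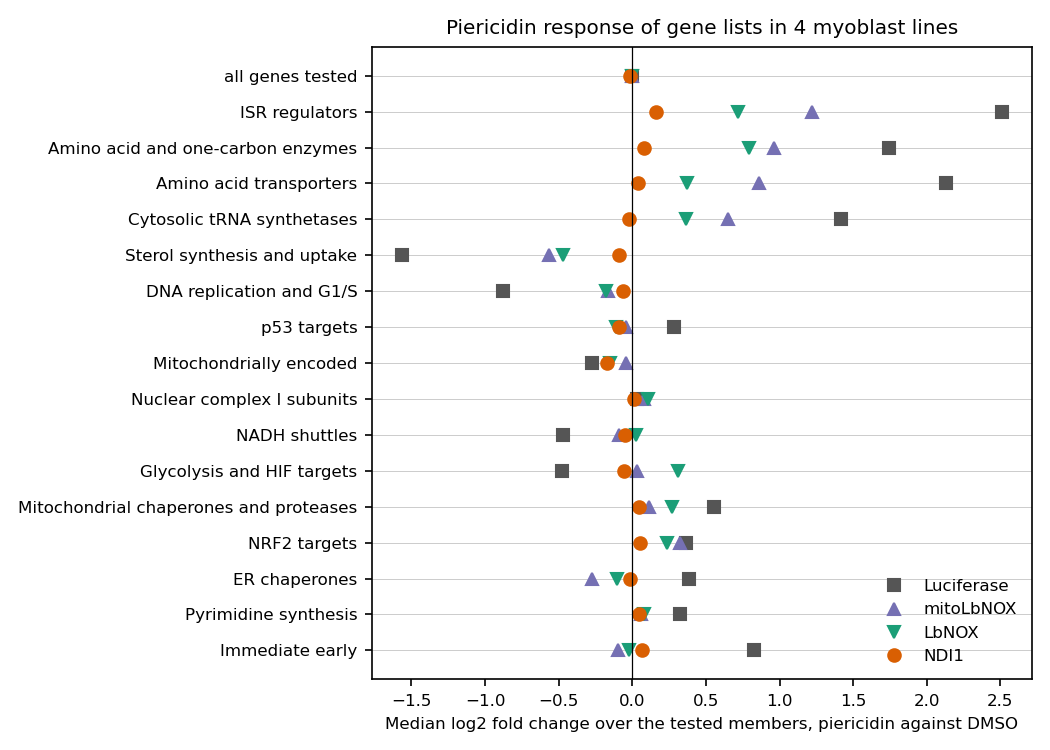
Median log2 fold change with piericidin against DMSO (x axis) over the tested members of each gene list (y axis), in luciferase, LbNOX, mitoLbNOX and NDI1 myoblasts; the 3-gene glucose-sensing list is left out. The NDI1 medians lie between -0.17 and 0.16, while those of luciferase cells run from -1.56 to 2.51.

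Among the genes with the smallest unadjusted p in NDI1 cells, a mean of at least 50 counts and groups not overlapping, 5 of the 8 that were higher belong to the ISR lists: Eif4ebp1, Chac1, Slc3a2, Trib3 and Gpt2. These lists hold 64 of the 11981 genes tested and were chosen with earlier results of these data known. The other 3 of the 8 were Gsta4, Cmtm7 and Prl2c2. Gsta4, a glutathione transferase for lipid aldehydes, had 50.6 and 51.5 CPM with DMSO and 64.9 and 66.5 CPM with piericidin, with no overlap, and a log2 fold change of 0.36 (SE 0.076, edgeR adjusted p = 0.283). Its response in luciferase cells was 0.77, and the difference of -0.41 (SE 0.099, edgeR adjusted p = 0.00122) is small beside those of the ISR genes. Cmtm7 had a log2 fold change of 0.54 (SE 0.13) in NDI1 cells and 0.14 in luciferase cells, and Prl2c2, a proliferin, had 0.33 (SE 0.088) and 0.17. None of the 8 but Eif4ebp1 passed the edgeR test, and DESeq2's Wald test added Chac1 and Gsta4, at adjusted p-values of 0.0305 and 0.049.

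The 8 lower genes of that kind were Sipa1l3, Bbs12, Peg3, Rdh11, Itpr1, Neat1, Car13 and Cfap97, with log2 fold changes from -0.98 (Bbs12) to -0.28 (Car13) and edgeR adjusted p-values of 0.464 or 0.576. Rdh11, a retinol dehydrogenase of the endoplasmic reticulum, had 34.0 and 34.6 CPM with DMSO and 25.02 and 23.0 CPM with piericidin in NDI1 cells. It was lower in both piericidin samples (-0.51, SE 0.13), while in luciferase cells it rose by 0.45, and the difference of -0.96 passed the test (SE 0.17, edgeR adjusted p = 2.1e-05). Neat1, the long noncoding RNA of paraspeckles, had 162 and 145 CPM with DMSO and 110.2 and 119 CPM with piericidin. Its log2 fold change was -0.43 (SE 0.12) in NDI1 and 0.14 in luciferase cells, and the difference was -0.57 (SE 0.15, edgeR adjusted p = 0.00292). In both genes the NDI1 level with DMSO was above that of luciferase cells with DMSO, by 0.43 for Rdh11 (edgeR adjusted p = 0.0234) and 0.50 for Neat1 (edgeR adjusted p = 0.00275). Peg3, a paternally expressed zinc finger gene, differed in the same sense as in luciferase cells, at -0.47 (SE 0.12) against -1.55.

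The second question was how much of the luciferase response was left. Piericidin changed 7389 genes in luciferase cells (61.7% of genes), and for 6234 of these the 95% interval in NDI1 cells excluded the luciferase estimate. The response itself was called different between the lines for 5116 genes (42.7%), among them 4997 of the 7389, and for all 4997 the NDI1 change was the smaller in the direction of the luciferase change, in which they had been chosen. Over the 7389 genes the least-squares slope through 0 of the NDI1 on the luciferase log2 fold changes was 0.076, against 0.17 for LbNOX and 0.21 for mitoLbNOX cells. Without NDI1 piericidin replicate 2 it was 0.046. Taken sample by sample against the mean of their own DMSO group, the 2 NDI1 piericidin samples had slopes of 0.067 and 0.094. The 2 NDI1 DMSO samples, each taken against the other and not against their mean, lay 0.037 to either side of 0. LbNOX piericidin samples lay at 0.12 to 0.17 and mitoLbNOX piericidin samples at 0.20 to 0.22. The highest NDI1 sample was thus below the lowest LbNOX sample. These slopes are across genes, which are not independent, they share the luciferase samples on the x axis, and they carry no p. The sign of the change was the same in NDI1 and luciferase cells for 59.0% of the 7389 genes.

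**Figure D3:**
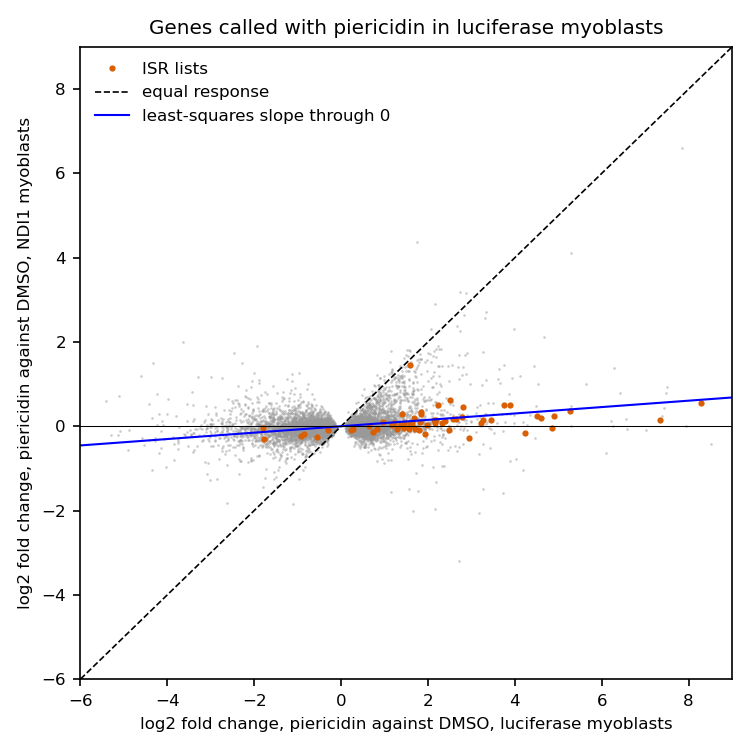
Log2 fold change with piericidin in NDI1 myoblasts (y axis) against that in luciferase myoblasts (x axis) for 7383 of the 7389 genes called in luciferase cells (6 genes lie outside the axes, which run from -6 to 9); ISR genes are orange, the dashed line is an equal response and the solid line has the slope of 0.076. In NDI1 cells 184 of the 7389 genes lie 1 or more from 0.

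The 8 genes that rose most in luciferase cells, and 7 of those that fell most, were chosen on that response, and their NDI1 values are a description. Fgf21, Car6, Extl1, Atf3, Avil, Elmo1, Prg4 and Adm2 lay at or below 1.17 CPM in each luciferase DMSO sample, a few counts for most of them, and at 9.52 (Elmo1) to 163 CPM (Atf3) with piericidin. In the 4 NDI1 samples they lay between 0.26 (Avil) and 2.06 CPM (Atf3), with fitted log2 fold changes from -0.097 (Avil) to 0.80 (Car6) at these low counts. Angpt1, Gprin3, Rab7b, Trerf1, Avpr1a, Rnf150 and Pagr1a had luciferase log2 fold changes from -5.15 to -3.65 and, Pagr1a aside, NDI1 log2 fold changes from -0.54 (Avpr1a) to -0.013 (Rnf150). Angpt1, angiopoietin 1, had 50.3 and 47.4 CPM with DMSO and 44.5 and 39.8 CPM with piericidin in NDI1 cells. Both piericidin samples were lower, with a log2 fold change of -0.21 (edgeR adjusted p = 0.727) against -5.15. Pagr1a was at 2.11 and 0.53 CPM with DMSO and at 4.88 and 5.80 CPM with piericidin, and its luciferase DMSO samples ran from 1.43 to 16.04 CPM.

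Distances between whole profiles were also taken. The root mean square difference in log2 CPM was 0.42 between the 2 NDI1 DMSO samples, 0.41 between the 2 NDI1 piericidin samples and 0.48 on average between NDI1 DMSO and NDI1 piericidin samples, with single pairs from 0.40 to 0.56. One of the 4 pairs across the treatment was thus closer than both pairs of replicates. Between DMSO and piericidin samples the mean was 0.52 in LbNOX cells (0.48 to 0.59) and 0.51 in mitoLbNOX cells (0.47 to 0.56), ranges that overlapped that of NDI1 cells, and 1.02 in luciferase cells. Mean distances between DMSO replicates were 0.42 in LbNOX, 0.43 in mitoLbNOX and 0.45 in luciferase cells. Between piericidin replicates they were 0.51, 0.40 and 0.54.

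The third question was whether NDI1 and the NADH oxidases left different responses. LbNOX cells had 1063 genes called with piericidin (8.87%) and mitoLbNOX cells 1341 (11.2%), with 3 samples a side in place of 2. Tested directly, the response of NDI1 cells differed from that of LbNOX cells at 152 genes (1.27%), 21 higher (0.175%) and 131 lower (1.09%) in NDI1, and from that of mitoLbNOX cells at 286 genes (2.39%), 59 higher (0.492%) and 227 lower (1.89%). Both tests use the same 4 NDI1 samples, so that the 2 counts are not independent of each other. Leaving out NDI1 DMSO replicate 2 or NDI1 piericidin replicate 2 gave 95 genes in each case against LbNOX, and 183 and 178 against mitoLbNOX.

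ISR genes were among these differences. Against LbNOX, the response in NDI1 was lower for 8 of 19 regulators, 12 of 14 enzymes, 5 of 11 transporters and 8 of 20 synthetases, where 1.09% of all genes were, and against mitoLbNOX it was lower for 12, 13, 7 and 15, where 1.89% were. The median differences in response from LbNOX were -0.56, -0.69, -0.45 and -0.29 in these lists. With DMSO alone the median log2 differences of NDI1 from LbNOX cells were 0.32, 0.34, 0.26 and 0.19. The same NDI1 DMSO samples enter both with opposite sign, so that the response and DMSO differences are not independent. Trib3 had 5.64, 8.34 and 7.12 CPM in LbNOX cells with DMSO and 43.1, 43.3 and 45.1 CPM with piericidin, and its response in NDI1 cells was lower by 2.26 on the log2 scale (SE 0.14, edgeR adjusted p = 1.99e-12). The 2 NDI1 piericidin samples, at 34.4 and 36.9 CPM, lay below all 3 LbNOX piericidin samples, and the 2 NDI1 DMSO samples, at 29.8 and 25.5 CPM, lay above all 3 LbNOX DMSO samples. Cth, cystathionine gamma-lyase of cysteine synthesis, had 17.8 and 20.6 CPM with DMSO and 21.7 and 23.4 CPM with piericidin in NDI1 cells, not overlapping, and its response was lower than in LbNOX cells by 2.06 (SE 0.16, edgeR adjusted p = 2.54e-10). With DMSO, the log2 difference of Cth in LbNOX from luciferase cells was itself -0.71. Ddit3 had 13.3, 14.1 and 13.7 CPM in LbNOX cells with DMSO and 26.8, 30.0 and 29.8 CPM with piericidin, 1 of which was below the higher NDI1 piericidin sample, and its response in NDI1 cells was lower by 0.87 (SE 0.11, edgeR adjusted p = 2.81e-06) than in LbNOX and by 1.35 (SE 0.10, edgeR adjusted p = 8.61e-11) than in mitoLbNOX cells.

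The 23 genes of glycolysis and HIF, the factor of the response to low oxygen, had a median log2 fold change of -0.056 in NDI1, 0.31 in LbNOX and 0.029 in mitoLbNOX cells. The response was lower in NDI1 than in LbNOX cells for 10 of them, where 1.09% of all genes were. It differed from mitoLbNOX cells for 0 by edgeR's test, with 6 lower at an unadjusted p under 0.05, where 832 of all 11981 genes were. Bnip3, a mitophagy receptor and HIF target, had 24.5 and 22.4 CPM with DMSO and 19.5 and 19.6 CPM with piericidin in NDI1 cells, lower in both piericidin samples. In LbNOX cells it went from 24.5 to 30.5 CPM with DMSO to 55.6 to 64.3 CPM with piericidin, and the NDI1 response was lower by 1.45 (SE 0.21, edgeR adjusted p = 4.53e-05). Txnip, a glucose-sensing inhibitor of glucose uptake, responded by -2.22 in LbNOX and -0.13 in NDI1 cells, a difference of 2.09 (SE 0.53, edgeR adjusted p = 0.0379). Of the 25 sterol genes, 5 had a higher response in NDI1 than in LbNOX cells (0.175% of all genes) and 12 than in mitoLbNOX cells (0.492%). Of 27 DNA replication and G1/S genes 0 were called by edgeR in either test. At an unadjusted p under 0.05, 8 were higher and 1 lower against LbNOX, where 359 of all 11981 genes were higher and 652 lower. Against mitoLbNOX 6 were higher at that p, where 448 of all genes were.

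Beneath these responses lay a difference that was there with DMSO alone. NDI1 cells with DMSO differed from luciferase cells with DMSO at 552 genes (4.61%), 328 higher and 224 lower, and 77 of them by at least 2-fold. LbNOX cells differed from luciferase cells at 321 (2.68%) and mitoLbNOX cells at 212 (1.77%), with the luciferase samples shared by the 3 counts. Leaving out single samples gave between 279 and 471 genes for NDI1, the lowest without NDI1 DMSO replicate 2 (306 without replicate 1, and 367 without luciferase DMSO replicate 3). Each line is its own transduction, so that the enzyme and the line cannot be told apart here. All NDI1 and luciferase DMSO samples came from edge wells of the plate by the codes described with plate position, and 1 DMSO sample each of LbNOX and mitoLbNOX did not.

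ISR genes were among those higher in NDI1 cells before any inhibitor. Of 19 regulators 9 were higher than in luciferase cells (median log2 difference 0.41), as were 11 of 14 enzymes (0.36), 4 of 11 transporters (0.25) and 8 of 20 synthetases (0.14), where 2.74% of all genes were called higher and the median was 0.0047. Trib3 had 9.39, 7.14 and 7.53 CPM in the luciferase DMSO samples. All 3 lay far below both NDI1 DMSO samples, and the log2 difference was 1.79 (SE 0.099, edgeR adjusted p = 8.79e-14). Aldh1l2, a mitochondrial enzyme of folate metabolism, had 67.7 and 73.9 CPM in NDI1 against 30.4 to 32.0 CPM in luciferase cells, with no overlap and a log2 difference of 1.18 (SE 0.070, edgeR adjusted p = 3.66e-13). For Ddit3 the log2 difference was 0.58 (SE 0.076, edgeR adjusted p = 3.59e-06), for Asns 0.38 (SE 0.054, edgeR adjusted p = 1.34e-05) and for Atf4 0.18 (SE 0.035, edgeR adjusted p = 0.00121). For Trib3 and Ddit3 this difference exceeded the change with piericidin in the same cells, 0.36 and 0.20.

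In LbNOX cells with DMSO, 0 of 19 regulators (edgeR, with 2 higher and 2 lower at an unadjusted p under 0.05) and 1 of 14 enzymes, Aldh1l2, were higher than in luciferase cells, and Cth was lower by 0.71. In LbNOX cells 1.3% of all genes were called higher and 1.38% lower in this comparison. At the unadjusted p 647 of all 11981 genes were higher and 759 lower. The mitoLbNOX cells had 3 regulators and 6 enzymes higher, where 0.985% of all genes were. Compared directly, NDI1 was higher than LbNOX with DMSO for 5 of 19 regulators, 11 of 14 enzymes, 4 of 11 transporters and 7 of 20 synthetases, where 0.751% of all genes were called higher, and higher than mitoLbNOX for 3, 6, 3 and 3, where 0.634% were.

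**Figure D4:**
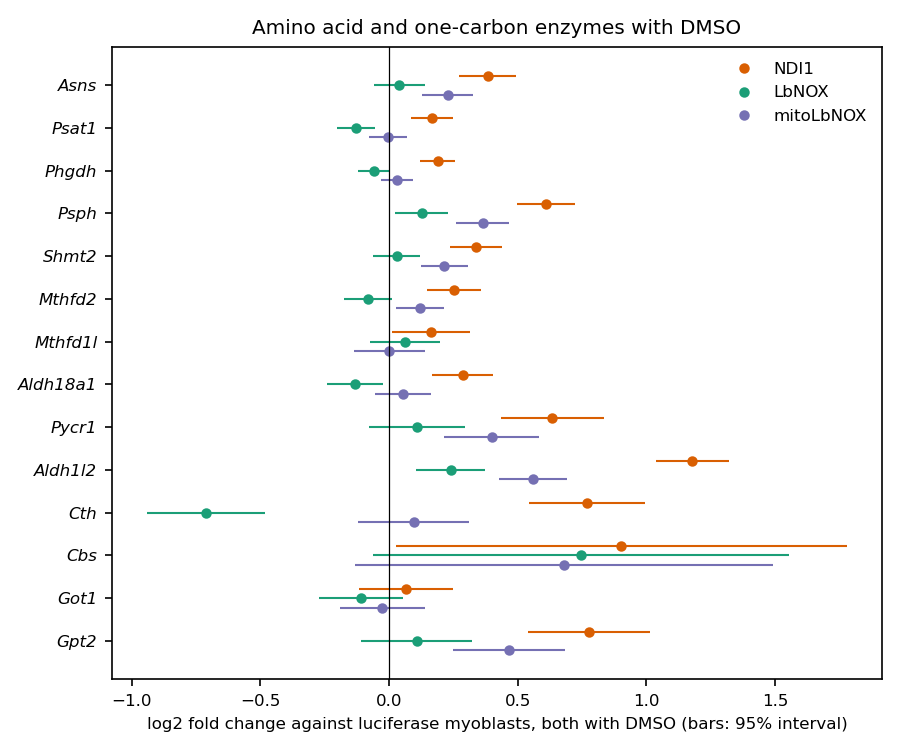
Log2 difference (x axis, points with 95% intervals) of the 14 amino acid and one-carbon enzymes in NDI1, LbNOX and mitoLbNOX myoblasts from luciferase myoblasts, all with DMSO. The NDI1 point lies above 0 and above the other 2 points for each of the 14 genes, up to 1.18 for Aldh1l2; the 3 lines share the luciferase samples.

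Among the large differences with DMSO outside the ISR, Col6a2 (2.19), the chemokines Cxcl5 (2.19) and Cxcl1 (2.01), the WNT antagonist Sfrp2 (2.15) and the growth factor Bmp4 (1.60) were higher in NDI1 than in luciferase cells, and Klhl13 (-2.68), Nptx1 (-1.87), Hgf (-1.61), Col18a1 (-1.46), Htr1b (-1.34) and Nefm (-1.21) were lower. Most of these had the same sign in the other lines against luciferase cells, as for Col6a2 at 1.92 in LbNOX and 1.78 in mitoLbNOX cells. Klhl13, an adaptor of a ubiquitin ligase, did not: it had 0.84 and 1.80 CPM in NDI1 DMSO samples against 7.55 to 9.14 CPM in luciferase cells, and was higher than in luciferase cells by 1.92 in LbNOX and 1.89 in mitoLbNOX cells. Mitochondrially encoded RNA was lower in NDI1 than in luciferase cells with DMSO for 6 of 13 genes, where 1.87% of all genes were, with a median of -0.44, and lower in LbNOX cells for 4, where 1.38% of all genes were, with a median of -0.27. In mitoLbNOX cells 1 of the 13 was lower, where 0.785% of all genes were, with a median of -0.021. For mt-Nd5 the NDI1 DMSO values were 296 and 316 CPM against 423 to 505 CPM in luciferase cells, with no overlap and a log2 difference of -0.57 (SE 0.10, edgeR adjusted p = 0.000471).

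Each sample label carries a code in the form of a position on a 96-well plate, and the labels do not say at which step it was used. By these codes both NDI1 DMSO samples came from the outermost wells and both NDI1 piericidin samples from inner wells, so that position and treatment cannot be told apart within the 4 samples. It moved with the largest differences between them. In NDI1 cells 179 genes with a mean of at least 50 counts differed by at least 2-fold, 172 higher and 7 lower with piericidin, and 0 of these passed the edgeR test, with 122 at an unadjusted p under 0.05. In 33 samples of the other lines, which did not enter the choice of these genes, the median log2 level of the 172 genes rose with distance from the edge of the plate, from 2.93 to 4.09 in 13 edge samples to 3.97 to 4.95, 4.44 to 5.23 and 4.87 to 5.25 at 1, 2 and 3 wells from it. The 2 NDI1 piericidin samples lay at 1 and 2 wells from the edge.

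**Figure D5:**
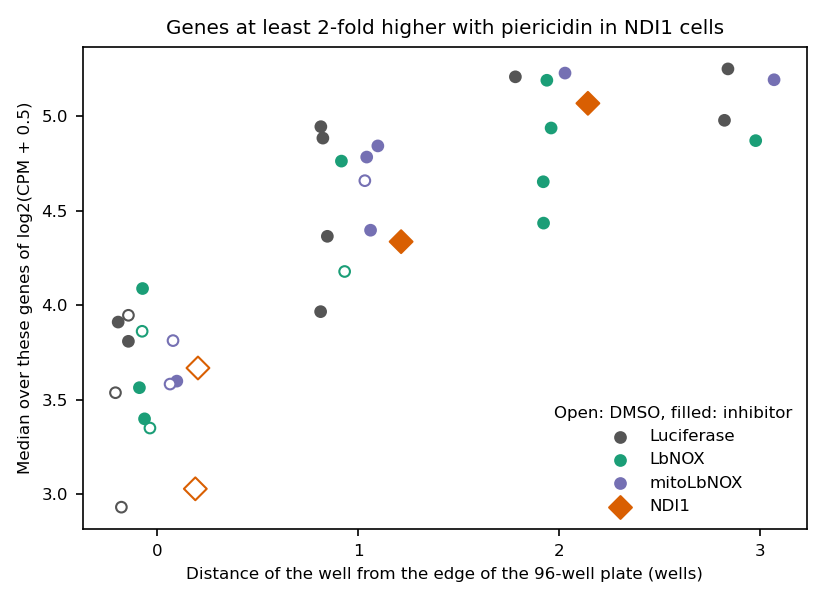
Median over the 172 genes of log2(CPM + 0.5) (y axis) in each of the 37 myoblast samples against the distance of its labelled well from the edge of the plate (x axis, points spread sideways by line); open symbols are DMSO and filled symbols an inhibitor. Edge wells lie at or below 4.09 in the other lines and wells 2 or 3 steps in lie at or above 4.44; no DMSO sample lies more than 1 well in.

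Within a single treatment the same held. In the 8 other groups with samples in both kinds of well, every inner sample was above every outer sample for between 67.4% and 99.4% of the 172 genes, and for between 30.2% and 35.4% of all genes. In luciferase cells with piericidin it was 169 of 172 genes. Of the 172, 92 were also called higher and 4 lower with piericidin in luciferase cells, where 30.9% of all genes were called higher and 30.8% lower, and whose 3 DMSO samples all lay in edge wells. Vars is of this kind, and so are Sipa1, Spint1, Med30 and Ripk2, 4 of the 5 genes with the largest NDI1 change opposite in sign to the luciferase change among those whose response differed. Their NDI1 log2 fold changes of 1.57, 1.50, 1.20 and 1.16 became 0.49, 0.36, 0.15 and 0.31 with an outer-well term in the model, and that of Vars became 0.29. The other, Rpl19-ps11, is a pseudogene, at 10.0 and 5.33 CPM with DMSO and 0 in both piericidin samples. Whether reads of other Rpl19 copies enter its counts was not tested.

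With the outer-well term the number of genes at an unadjusted p under 0.05 in NDI1 cells fell from 1005 to 597 (4.98%), and Eif4ebp1 was still the 1 gene called, at 0.27 (edgeR adjusted p = 0.0115). The 55 ISR genes had a median log2 fold change of 0.14 in place of 0.080, with 43 above 0 and 21 higher and 0 lower at an unadjusted p under 0.05 in place of 13 and 1, while 52.1% of all genes were above 0. With distances from the edge in rows and columns, each counted up to 2 wells, Eif4ebp1 was at 0.28 with an edgeR adjusted p of 0.0759 and 0 genes were called, with 547 at an unadjusted p under 0.05. The slope of the NDI1 response on the luciferase response was 0.056 with the outer-well term, in place of 0.076.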

How the data were processed

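RNA-seq of polyA-selected RNA (Smart-seq2, not strand-specific) was measured in 96 C2C12 samples, of which the 4 of NDI1 myoblasts with DMSO or piericidin are described. Per the labels and the methods of the study, the authors demultiplexed reads with bcl2fastq 2.20.0.422 and quantified them with kallisto 0.44 with bias correction against mouse transcripts (mm10) and the transgenes, summed them to genes with tximport and over 2 flow cells, and deposited estimated counts, whole numbers without normalization, for 54146 genes and 4 transgenes. Such counts hold no molecular identifiers, so that amplification is part of the spread between samples and cannot be told apart within it. The deposited table was the only data used.

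Groups, replicate numbers and plate codes came from the labels. All 37 myoblast samples treated for 10 hr (13 groups) were fitted together with edgeR 4.0.16 (R 4.3.3, limma 3.58.1): a gene was kept if some condition had 16 or more counts in each of its replicates, followed by TMM normalization, glmQLFit and glmQLFTest, with Benjamini-Hochberg adjustment over 11981 genes and a threshold of 0.05. SE is the absolute log2 fold change over the square root of F. CPM are TMM-normalized. Totals in the fit had a median of 10641807 counts.

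The members and the gene lists were chosen with earlier results of these data known. Lists were ISR regulators, amino acid and one-carbon enzymes, amino acid transporters, cytosolic tRNA synthetases, sterol synthesis and uptake, DNA replication and G1/S, p53 targets, mitochondrially encoded, nuclear complex I subunits, NADH shuttles, glycolysis and HIF targets, glucose sensing, mitochondrial chaperones and proteases, NRF2 targets, ER chaperones, pyrimidine synthesis, immediate early and cell markers, with 275 of 288 symbols tested. Genes named are those called, the transgene, 10 genes of the study, the 8 smallest unadjusted p in each direction (mean of at least 50 counts, no overlap, no predicted genes), the 8 largest luciferase responses in each direction (1 of them is not reported here), up to 5 responses of opposite sign, the 6 largest DMSO differences in each direction, and, of each list, the 3 members with the most counts and the smallest p; these last are given in part as ranges, and Aldh1l2, Cth, Bnip3, Vars, Nupr1, mt-Nd5 and the sites shown were chosen after their values were seen. Alternatives were DESeq2 size factors, no filter, filterByExpr, the Wald test of DESeq2 1.42.0, the other dispersion setting of edgeR, a replicate block, well position as a covariate, only the groups compared, and leaving out each sample.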

Additional observations from a re-analysis of the deposited data

Results flagged for a closer look

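The response to piericidin differed between NDI1 and other myoblasts by a test of the difference itself, edgeR's interaction term with Benjamini-Hochberg adjustment. It differed from that of luciferase cells at 5116 of 11981 genes, 2543 higher and 2573 lower in NDI1 cells, from that of LbNOX cells at 152 genes, and from that of mitoLbNOX cells at 286 genes. The 3 tests share the NDI1 samples. No group had enough samples to be examined for single samples that stand apart.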

How the results depend on the processing

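The count of 1 gene called with piericidin in NDI1 cells was 552 without the count filter (497 higher, 55 lower, of 40795 genes), 6 by DESeq2's Wald test (5 higher, 1 lower), 0 with distances in rows and columns counted up to 2 wells (547 genes at an unadjusted p under 0.05), 0 with only the groups compared (1098 at an unadjusted p under 0.05) and 0 to 1 when single samples were left out. The 552 genes that differed with DMSO were 228 with only the groups compared and 279 to 471 with single samples left out. The 152 genes against LbNOX were 244 without the filter, 71 with only the groups compared and 95 to 144 with single samples left out, and the 286 against mitoLbNOX were 164 and 178 to 255. The slope of 0.076 was 0.056 with the outer-well term, 0.056 with the ring of wells as a factor and 0.046 to 0.10 with single samples left out, the lowest without NDI1 piericidin replicate 2 and the highest without NDI1 DMSO replicate 1. The cause was not tested, other than that the filter and the samples left out change the genes and the samples in the fit. The 5116 genes against luciferase stayed between 4423 and 5341 under all alternatives. Of 1499 values of single genes under alternatives, 46 passed below the threshold, 10 above it, 0 that passed it in either fit changed sign, and 20 that passed it in neither did. The ring and distance terms and the newer dispersion setting of edgeR, which called 1 gene, were added after seeing the data.

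Samples of the same replicate number in the NDI1 groups did not deviate together (correlation 0.00099), so that the numbers were not taken as pairs. With replicate number as a block, 1 gene was called with piericidin in NDI1 cells, with 1213 in place of 1005 genes at an unadjusted p under 0.05, and 562, 174, 301 and 5202 genes for the DMSO difference and the responses against LbNOX, mitoLbNOX and luciferase cells.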

Other observations

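The 172 genes that were at least 2-fold higher with piericidin in NDI1 cells differed from the other 9643 genes with a mean of at least 50 counts in base composition, with a median GC content of the longest transcript of 52.1% against 49.1%.

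Other gene lists also held genes that differed between NDI1 and luciferase cells with DMSO alone, where 2.74% of all genes were called higher and 1.87% lower. Of 25 sterol genes 4 were lower and 0 higher, of 14 p53 targets 3 were lower and 2 higher, and of 13 immediate early genes 4 were higher and 0 lower. Cdkn1a was among the lower p53 targets, at 90.3 and 91.0 CPM in NDI1 against 111 to 118 CPM in luciferase cells with DMSO, with no overlap and a log2 difference of -0.33 (SE 0.058, edgeR adjusted p = 0.000386). Of the 5 myoblast markers 2 were lower and 0 higher, with a median log2 difference of -0.38.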
